A study of Anas platyrhynchos x Cairina moschata with 205 samples.

Results

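Livers of control mule duck embryos (the hybrid Anas platyrhynchos x Cairina moschata) at embryonic day 28 (E28) were set against those of control embryos at embryonic day 24 (E24). These 16 livers, 8 per stage, were all those labelled as control at the 2 stages, out of 205 livers in the series. Both groups came from control eggs, held in the incubator at a constant set temperature apart from a brief daily cooling with spraying. They are the control arm of a trial in which the temperature of the other incubator was raised each day (thermal manipulation, TM), and the 8 livers per stage of that TM group serve below as a separate set. One incubator held all the control eggs, so the livers of both stages shared it and stage cannot be told apart from the day of sampling. The methods describe the E24 sampling and, for E28, only the transfer of the eggs to the hatchery, which was cooler and more humid. Whether the E28 livers were taken before or after that transfer is not given in the sources used here. The labels place the E28 livers, controls too, 1 h after the temperature increase, which by the methods had ended before E28. RNA of whole liver was measured by high-throughput quantitative PCR with 92 assays, of which 1 is luciferase, an RNA added to every sample. Of the 91 duck genes, 87 were tested, those with 6 or more values at E28 and as many at E24. The others were SCD1, a desaturase, HDAC9, a histone deacetylase, TLR4, a receptor of innate immunity, and HGF, a growth factor, with values in 5 and 4, 6 and 5, 7 and 5, and 5 and 5 livers of E28 and E24.

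In birds the last days in the egg are a period of rising thyroid hormone activity, and the liver is a main site where the hormones are activated by outer-ring deiodination or inactivated by the type 3 deiodinase. The embryo lives on yolk lipids, which the liver takes up, burns or repackages. The machinery that makes new fatty acids from carbohydrate is little used before hatching and becomes prominent in the liver once the bird eats.

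Relative expression is given throughout as the log2 of the deposited ratio, in which 0 is the mean of the gene over all livers of the trial and a step of 1 corresponds to 1 PCR cycle. Means are given ± SD and differences ± SE. Adjusted p-values come from limma, corrected by Benjamini-Hochberg for all 87 genes, and a gene is said to have risen or fallen only where this value was under 0.05. Exact p-values are from two-sided permutation tests of single genes over every split of the livers, and they are not adjusted. The eggs shared a single incubator, at least up to the transfer to the hatchery. The p-values therefore reflect only how much the deposited ratios differed between livers. Some values with a Ct (PCR cycle of detection) had no ratio. Most of these would have lain outside the range kept, as given below, which narrows the spread behind the p-values.

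Between the 2 stages 14 of 87 genes (16.1%) changed: 12 rose (13.8%) and 2 fell (2.30%). The largest change was the fall of the hormone-inactivating deiodinase DIO3, 9.17-fold lower at E28. The thyroid hormone receptor THRB, the chaperones HSPA5 and HSP90AA1, and ACC, the first committed enzyme of fatty acid synthesis, led the genes that rose. Over all genes tested the median difference was 0.22, with 59 positive and 28 negative differences, and the median SE was 0.31. Without adjustment, limma gave a p under 0.05 for 24 genes and the exact permutation test for 22 (25.3%). Each liver was also centred on the panel, by the mean of the 44 genes with a ratio in all 16 livers. The median difference was then −0.06 and the split was 7 higher and 6 lower. On that scale ELOVL6, APOB, ELP3, AMBRA1 and SLC16A10 did not pass, and ACAT1, ALB, ENO1 and PLIN2 were called lower. When each liver was left out in turn, DIO3, THRB, HSPA5, HSP90AA1, ACC, ACSL1 and GAPDH passed in all 16 fits and the other 7 genes in 3 to 7 of them.

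**Figure D1:**
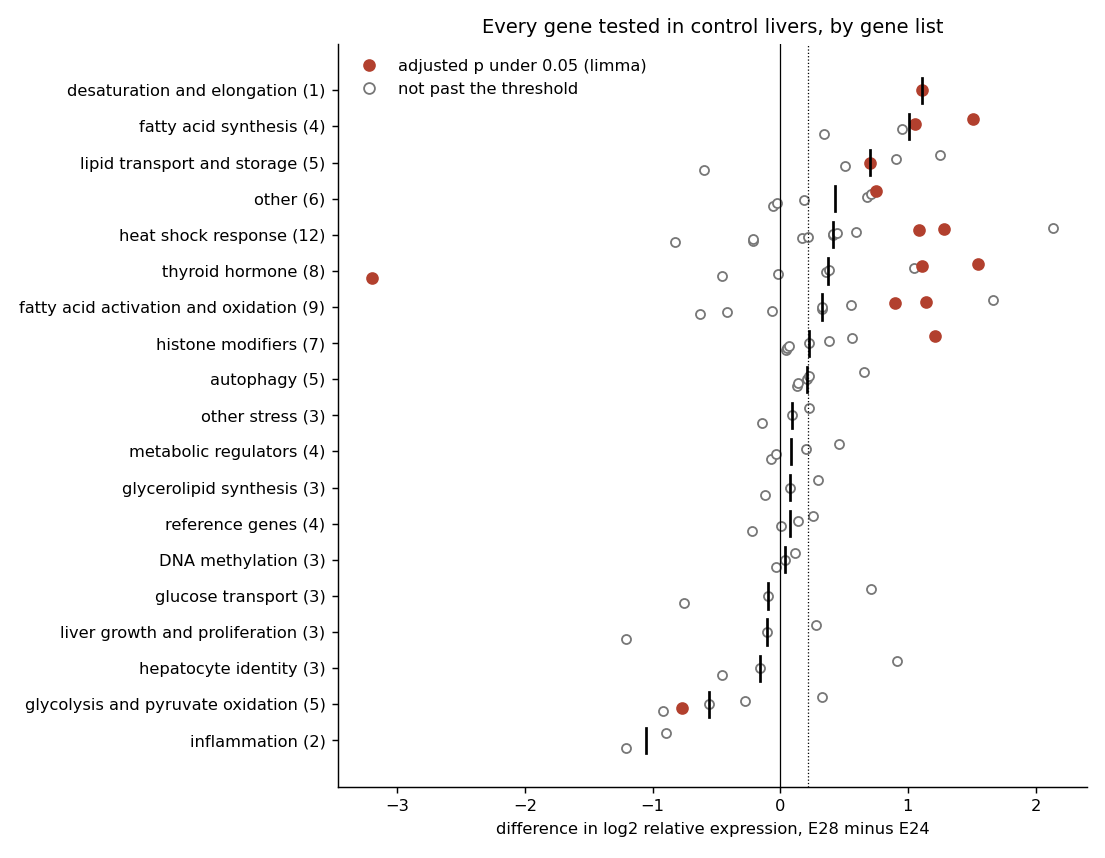
Difference in log2 relative expression between E28 and E24 control livers for each of the 87 genes (circles), grouped by gene list on the vertical axis with the number of genes tested in brackets (ALB, USP16 and TGFB1 appear in 2 lists); filled circles passed an adjusted p of 0.05 (limma), black bars are list medians and the dotted line is the median of all genes, 0.22. DIO3 stands alone at −3.20, and the 4 genes of fatty acid synthesis all lie to the right of 0, as do 59 of the 87 genes in all.

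The livers carried the RNA of hepatocytes at both stages. Albumin was detected in every liver, at a Ct (the PCR cycle where fluorescence is first called) of 6.24 to 8.18 at E28 and 6.33 to 7.41 at E24, and so were the other hepatocyte markers HNF4, a transcription factor, and CYP2C, an assay that the file describes as a cytochrome P450 of another subfamily. None of the 3 passed the test (ALB −0.45 ± 0.29, HNF4 −0.16 ± 0.36, CYP2C 0.92 ± 0.61). Markers of other cells were few on this panel. STAB1, which endothelial cells of the sinusoids use to take up waste and which also served as a reference gene and whose full name in the file is that of its paralogue, differed by −0.22 ± 0.27, the cytokine TGFB1 by −1.21 ± 0.74 and the cytokine IL18 by −0.90 ± 0.41, and none passed (adjusted p = 0.667, 0.33 and 0.172 by limma). With all Ct the difference was −0.14 for IL18 and −0.84 for TGFB1. HGF, of mesenchymal cells, had a value in 5 livers of each stage and was not tested. The part of these markers in the results was not tested, and in whole liver fewer cells of a type and less RNA per cell cannot be told apart.

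Some measurements bear on every gene. Averaged over the 4 reference genes, the Ct was 19.2 ± 0.65 at E28 and 19.3 ± 0.63 at E24 (exact permutation p = 0.842, n = 8 each), and luciferase stood at 20.8 cycles at both stages (exact p = 0.981). Replicate 4 of E24 stood apart, with ratios for 64 genes, against 84 to 91 in the other livers, and a luciferase Ct of 22.9. Of the 61 values of both stages that had a Ct but no deposited ratio, 58 would have lain outside the range of the values kept for the same gene and stage, all 27 of that liver above it. With the ratios recomputed from all Ct the median SE was 0.34, against 0.31 for the deposited ratios, and 6 genes rose and 2 fell, without ELOVL6, FASN, APOB, ELP3, AMBRA1 and SLC16A10. Of these, ELOVL6, FASN, AMBRA1 and SLC16A10 had no missing ratio and kept their differences, with adjusted p-values of 0.0523 to 0.0669, while APOB and ELP3 differed by 0.52 and 0.90. Without replicate 4 of E24, 15 genes rose and 2 fell.

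The thyroid hormone gene DIO3 gave the clearest separation of the stages. DIO3, which inactivates thyroid hormones by inner-ring deiodination, ran from −3.03 to −1.21 in the 8 livers of E28 with a median of −1.67, against 0.20 to 1.93 with a median of 1.42 in the 8 livers of E24. No liver of either stage reached the range of the other. The livers of E28 were spread in 2 steps, 4 of them between −1.36 and −1.21 (replicates 1, 4, 7 and 8) and 4 between −3.03 and −1.98. The means were −1.93 ± 0.77 and 1.27 ± 0.55, a difference of −3.20 ± 0.33 (limma, adjusted p = 1.16e-06). The exact permutation p of 0.000155 is the smallest that 8 livers against 8 can give. It was also the only change that passed when luciferase alone was the reference, at −3.14.

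THRB, the thyroid hormone receptor that predominates in liver, ranged from 0.96 to 2.01 with a median of 1.18 at E28 (n = 8) and from −0.57 to 0.10 with a median of −0.22 at E24 (n = 7). The deposited values did not overlap, and E28 replicate 3, which had the lowest DIO3, had the highest THRB. The difference was 1.55 ± 0.20, or 2.92-fold (limma, adjusted p = 3.45e-05; exact permutation p = 0.000155). E24 replicate 3 had a Ct but no ratio for THRB. From that Ct it would have stood at 1.25, inside the range of E28, and the difference with all Ct was 1.36 (limma, adjusted p = 0.00198). In one limma fit of all livers of the trial, which pools the spread of every stage, THRB did not pass (adjusted p = 0.127).

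SLC16A10, a transporter of aromatic amino acids that also carries thyroid hormones, rose by 1.11 ± 0.37 (limma, adjusted p = 0.0450). It ranged from −0.78 to 1.23 with a median of 0.69 in E28 livers and from −1.79 to 0.66 with a median of −0.83 in E24 livers. The ranges overlapped, and it remained below 0.05 in 5 of the 16 fits that left out 1 liver. DIO1, which can activate the prohormone by outer-ring deiodination, averaged 0.60 ± 0.77 at E28 and −0.45 ± 0.80 at E24. Its difference of 1.05 ± 0.37 missed the threshold (limma, adjusted p = 0.0669; exact permutation p = 0.0199). Replicate 2 of E28, at −1.14, was the only liver of its stage below 0.27 for DIO1.

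The difference between both deiodinases within each liver does not involve the reference genes. The Ct of DIO3 minus that of DIO1, which is larger where DIO1 is relatively more abundant, was 0.26 to 3.34 cycles at E28 with a median of 1.34, and −3.55 to −1.94 cycles at E24 with a median of −2.78. Every liver of E28 was thus above every liver of E24. Since both genes were chosen after their values were known, this is a description with no test. The 4 remaining genes of the thyroid list did not pass: JMJD1C, a histone demethylase domain protein (0.36), NCOR, a corepressor of nuclear receptors (−0.01), USP16, a histone deubiquitinase (0.38), and ALB, which binds thyroid hormones in plasma. Of the 8 genes, 2 rose and 1 fell, against 13.8% and 2.30% over all genes, with a median of 0.37 against 0.22.

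**Figure D2:**
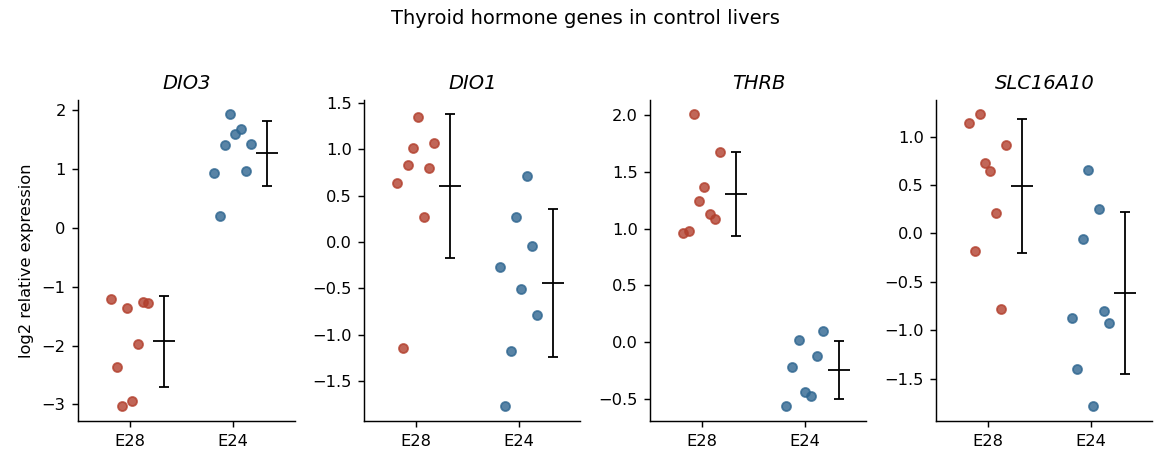
Log2 relative expression of DIO3, DIO1, THRB and SLC16A10 in each control liver (points) at E28, left, and E24, right, with the mean ± SD beside them (8 livers per stage; 7 for THRB at E24). DIO3 is below −1.2 in every liver of E28 and above 0 in every liver of E24, while DIO1 and SLC16A10 overlap.

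ACC and FASN, of the 4 genes of fatty acid synthesis, and the elongase ELOVL6 rose. ACC, acetyl-CoA carboxylase, ranged from −1.24 to 0.41 with a median of −0.48 in E28 livers, against −3.17 to −1.10 with a median of −1.95 in E24 livers. The 2 ranges met only at their ends, where 2 E28 livers (replicates 2 and 3) lay under the highest E24 liver. ACC rose by 1.51 ± 0.33, or 2.86-fold (limma, adjusted p = 0.00436; exact permutation p = 0.000466), and it passed in all 16 fits that left out 1 liver. FASN, the synthase that assembles the chain, rose by 1.06 ± 0.33 (limma, adjusted p = 0.0442). Its lowest, median and highest values were −2.01, −1.07 and 0.37 at E28 and −2.65, −2.09 and −1.14 at E24. Of the 8 livers of E28, 4 were above every liver of E24, and replicates 1 and 5, at 0.37 and 0.11, stood highest.

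ELOVL6, which lengthens the products of FASN, rose by 1.11 ± 0.34 (limma, adjusted p = 0.0442), with −1.70, −0.09 and 0.22 as lowest, median and highest values at E28 and −2.62, −1.25 and −0.46 at E24. All but 2 livers of E28 were above all livers of E24. ACLY, which supplies cytosolic acetyl-CoA, differed by 0.96 ± 0.35 (adjusted p = 0.0740 by limma) and malic enzyme (ME), a source of NADPH, by 0.34 ± 0.28 (adjusted p = 0.483). Of the 4 genes of fatty acid synthesis, 2 rose, against 13.8% over all genes. All 4 differences were positive, against 59 of 87, with a median of 1.01 against 0.22 over all genes. The rises of FASN and ELOVL6 passed in 4 and 5 of the 16 fits that left out 1 liver, and neither passed in the fit of all livers of the trial (adjusted p = 0.124 and 0.121 by limma).

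ACSL1 and CPT1A, of the 9 genes of fatty acid activation and oxidation, rose. ACSL1, which activates long-chain fatty acids to acyl-CoA, ranged from 0.23 to 1.53 (median 1.08) at E28 and from −0.63 to 0.75 (median 0.19) at E24. It rose by 0.90 ± 0.22 (limma, adjusted p = 0.0119) and passed in all 16 fits that left out 1 liver. CPT1A, which controls the entry of fatty acids into mitochondria, rose by 1.14 ± 0.34 (limma, adjusted p = 0.0352), with values of −0.72 to 1.16 (median 0.40) at E28 and −1.68 to 0.54 (median −0.79) at E24. Only replicate 2 of E28 was below 0.11 for CPT1A.

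Other enzymes of the list did not pass. ACAT1, a thiolase of ketone body metabolism, differed by −0.63 ± 0.24 (adjusted p = 0.0813 by limma; exact permutation p = 0.0124). The mitochondrial thiolase ACAA2 differed by 0.56 ± 0.40, or −0.06 with all Ct, and the acyl-CoA dehydrogenase ACAD11 by 0.33 ± 0.30. In this list 2 of 9 genes rose, against 13.8% over all genes, and none fell, with a median of 0.33 against 0.22. ALDH3A2, a fatty aldehyde dehydrogenase, had the largest difference of the list, 1.67, with an SE of 1.21. Single livers stood far out at both stages, replicate 4 of E28 at −5.89 (Ct 26.5) and replicate 8 of E24 at −8.51 (Ct 28.6). The medians were 0.15 at E28 and −1.53 at E24.

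**Figure D3:**
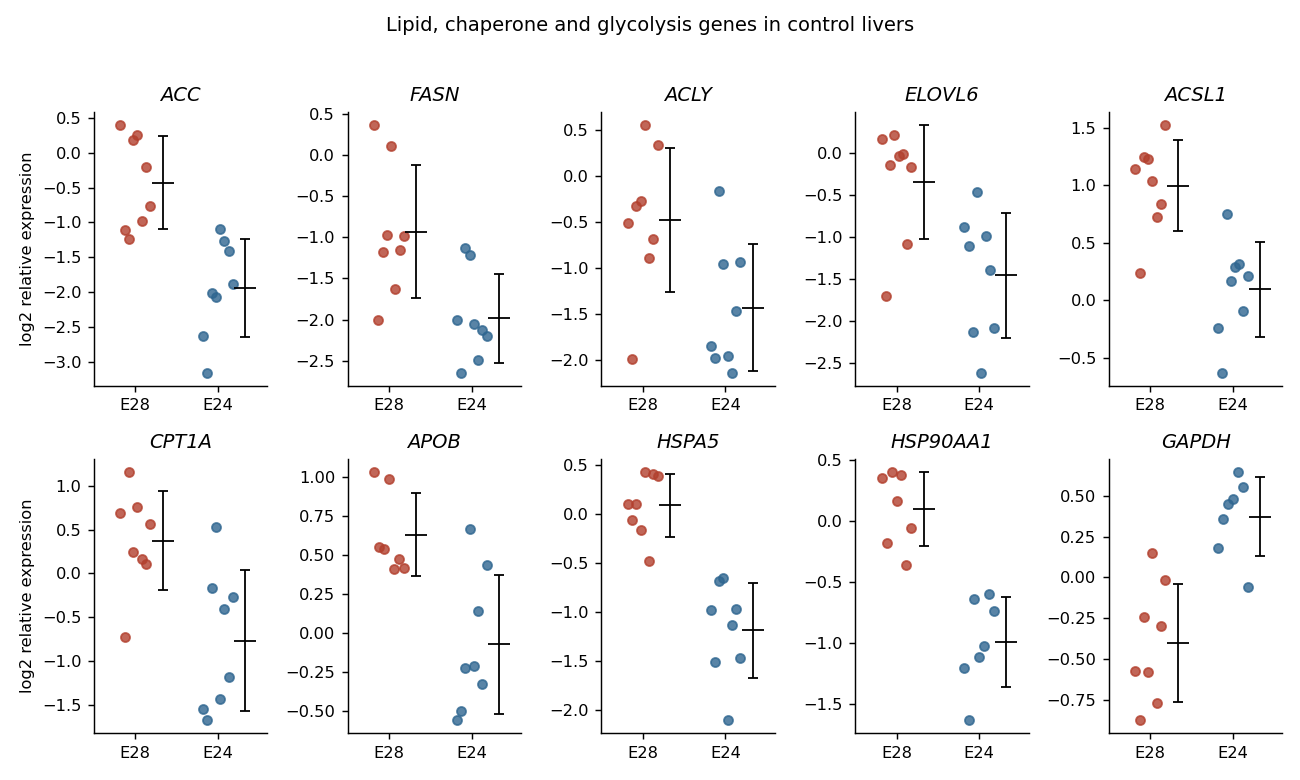
Log2 relative expression in each control liver (points) at E28, left, and E24, right, with the mean ± SD beside them, for 7 lipid genes, the chaperones HSPA5 and HSP90AA1, and GAPDH; the vertical axis differs between panels. In the deposited ratios HSPA5 and HSP90AA1 do not overlap between the stages, and the other genes do. With missing ratios filled from Ct, HSP90AA1 overlaps as well.

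Among genes of lipid transport, APOB, the structural protein of very-low-density lipoprotein, ranged from 0.41 to 1.03 (median 0.54, n = 7) at E28 and from −0.56 to 0.67 (median −0.22, n = 8) at E24. It rose by 0.70 ± 0.22 (limma, adjusted p = 0.0442), the smallest rise that passed. The E28 value without a ratio, replicate 2, would have stood at −0.80, below every E24 liver, and APOB did not pass with all Ct. VLDR, the assay of the very-low-density lipoprotein receptor, differed by 0.91 ± 0.38 (limma, adjusted p = 0.107). LDLR4 differed by 0.51 ± 0.21 (limma, adjusted p = 0.104). Its full name is that of a protein with the class A domain of the low-density lipoprotein receptor. Whether this assay measures a lipoprotein receptor is therefore open. PLIN2, which coats lipid droplets, differed by −0.60 ± 0.30. In this list of 5 genes 1 rose, against 13.8% over all genes, and the median was 0.70 against 0.22. In the glycerolipid list DGAT2, GPAT1 and CEPT1, which assemble triglycerides and phospholipids, differed by −0.12 to 0.29 and none passed.

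HSPA5 and HSP90AA1 rose, 2 of the 12 genes of the heat shock list, a share near the 13.8% over all genes. HSPA5, the chaperone of the endoplasmic reticulum, ranged from −0.48 to 0.43 with a median of 0.10 at E28 and from −2.11 to −0.65 with a median of −1.06 at E24. It rose by 1.28 ± 0.23, or 2.43-fold (limma, adjusted p = 0.000707; exact permutation p = 0.000155), with no overlap in the 16 livers, all of which had a ratio. HSP90AA1, the stress-inducible cytosolic chaperone, ranged from −0.37 to 0.40 with a median of 0.16 at E28 and from −1.63 to −0.60 with a median of −1.02 at E24 (n = 7 each). It rose by 1.09 ± 0.22, or 2.13-fold (limma, adjusted p = 0.00292; exact permutation p = 0.000583). The values without a ratio would have stood at 1.14 in E28 replicate 8 and at 0.13 in E24 replicate 4. The second of these lies within the E28 range. With all Ct the difference of HSP90AA1 was 1.08 (limma, adjusted p = 0.014). In the deposited ratios 3 genes that were higher at E28 (3.45%) and 1 that was lower (1.15%) showed no overlap, namely THRB, HSPA5 and HSP90AA1, and DIO3. With the missing ratios filled from Ct, DIO3 and HSPA5 still had none.

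The 10 other genes of the heat shock list did not pass. The co-chaperones DNAJA2 and ST13 differed by 0.60 ± 0.29 and 0.44 ± 0.25, the mitochondrial co-chaperonin HSP10 by 0.41 ± 0.22, and the heat shock factors HSF1, HSF2 and HSF3 by 0.17, 0.22 and 0.41. HSPA2, of the same family as HSPA5, differed by −0.21 ± 0.27. HSP60, the partner of HSP10, had a difference of 2.14, with an SE of 0.97 and values from −3.90 to 1.78 at E28 and −5.35 to 0.09 at E24 (adjusted p = 0.161 by limma). Its mean Ct over the 16 livers was 26.4, so it was a weakly detected assay. In E24 replicate 5 the Ct of HSP60 was 30.8, past the last PCR cycle that the methods describe.

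In carbohydrate metabolism GAPDH, a glycolytic enzyme, was the second gene that fell. It ranged from −0.88 to 0.15 (median −0.44, n = 8) at E28 and from −0.06 to 0.65 (median 0.45, n = 7) at E24, and differed by −0.77 ± 0.20, 1.71-fold lower at E28 (limma, adjusted p = 0.0164). Of the E28 livers, 2 reached the E24 range, where replicate 8 of E24 was the lowest. The other genes of the list were hexokinases HK1 and HK2, at −0.55 ± 0.51 and −0.92 ± 0.63, enolase ENO1, at −0.27 ± 0.23, and the pyruvate dehydrogenase subunit PDHA1, at 0.33 ± 0.34. None of them passed, and the median of the 5 genes was −0.55. GLUT2, the glucose transporter of hepatocytes, differed by 0.71 ± 0.26 (adjusted p = 0.0740 by limma), and GLUT1 and GLUT3 by −0.10 and −0.75.

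Outside metabolism, ELP3, the acetyltransferase subunit of the Elongator complex, rose by 1.21 ± 0.39 (limma, adjusted p = 0.0445), with a median of 0.33 (−1.52 to 1.04) at E28 and −0.96 (−2.60 to −0.30, n = 7) at E24. E24 replicate 4 had no ratio and would have stood at 1.36, above every other liver, and ELP3 did not pass with all Ct. It was the one gene of 7 histone modifiers that passed, a share near the 13.8% that rose over all genes. All 7 differences were positive, against 59 of 87 over all genes, with a median of 0.22, that of the whole panel. The histone-binding protein RBBP4 was next, at 0.56 ± 0.22 (adjusted p = 0.0803 by limma). AMBRA1, a regulator of autophagy that stood outside the autophagy list, rose by 0.75 ± 0.24 (limma, adjusted p = 0.0445). Its median was 0.16 (−0.25 to 0.60) at E28 and −0.46 (−1.43 to 0.21) at E24. The 5 genes of the autophagy list, among them ATG3 at 0.65 ± 0.33, had positive differences, against 59 of 87 over all genes, and none passed. None of the regulators ChREBP (0.46), LXRA (0.20), PPARA (−0.04) and PPARG (−0.07), nor DNMT3A, TET1 and TET2 of DNA methylation (−0.04 to 0.12), passed.

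None of the genes used as references passed: HPRT1 differed by 0.01, USP9X by 0.26 and ACTB, a reference gene of the first trial, by 0.14. HPRT1, USP9X and STAB1 are part of the mean that their own ratios are set against. Their ratios therefore cannot show whether they were stable. With each liver centred on the panel, HPRT1 differed by −0.27 and STAB1 by −0.50. FABP4, a fatty acid carrier, differed by 1.25 with an SE of 0.65, TUBA1C, a tubulin, by 0.71 ± 0.34 and POL2RC, a subunit of RNA polymerase II, by 0.68 ± 0.26 (adjusted p = 0.222, 0.18 and 0.0801 by limma). DNAJB12, a co-chaperone, differed by −0.82 with an SE of 1.05. Replicate 3 of E28 stood at −8.15, from a Ct of 30.7, past the last PCR cycle that the methods describe. Each of the other genes tested differed by less than 0.5 in size, and none passed.

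The other stages of the control arm place these livers in time. They share the E24 and E28 livers, so they are described without a test. Mean DIO3 was 1.36 at E12, 1.03 at E16, 1.88 at E20, 1.27 at E24, −1.93 at E28 and −4.70 at E30, the day of hatch. It stayed within a narrow band to E24 and lay lower at each later stage. DIO1 had means of −0.45 at E24, 0.60 at E28 and 1.33 at E30, and THRB of −0.24, 1.30 and 0.48. ACC was at −0.46 at E12, −1.57 at E16, −1.94 at E24, −0.43 at E28 and 3.62 ± 1.41 at E30. Its E28 mean was thus near that of E12 and far under that of hatched ducklings. FASN averaged −0.37 at E12, −0.93 ± 0.80 at E28 and 5.26 ± 2.27 at E30, and ELOVL6 −1.32 at E12, −0.35 ± 0.68 at E28 and 4.32 ± 1.76 at E30. The lowest E30 values of ACC, FASN and ELOVL6, at 0.24, −0.24 and 0.18, lay within the E28 ranges. ACSL1 had means of 0.10 at E24, 1.00 at E28 and −1.06 at E30. CPT1A ranged from −0.72 to 1.16 at E28 and from −3.57 to −0.03 at E30. Its mean of 0.37 at E28 was higher than at E24 or E30 but below the 1.26 of E12. HSPA5 averaged 0.58 at E12, −1.19 at E24, 0.09 at E28 and 0.73 at E30, and HSP90AA1 0.25, −0.99, 0.10 and 1.03. ELP3 averaged 0.54 at E12, 0.48 at E20, −1.09 at E24 and 0.12 at E28. The E28 means of HSPA5, HSP90AA1 and ELP3 thus lay below those of E12.

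**Figure D4:**
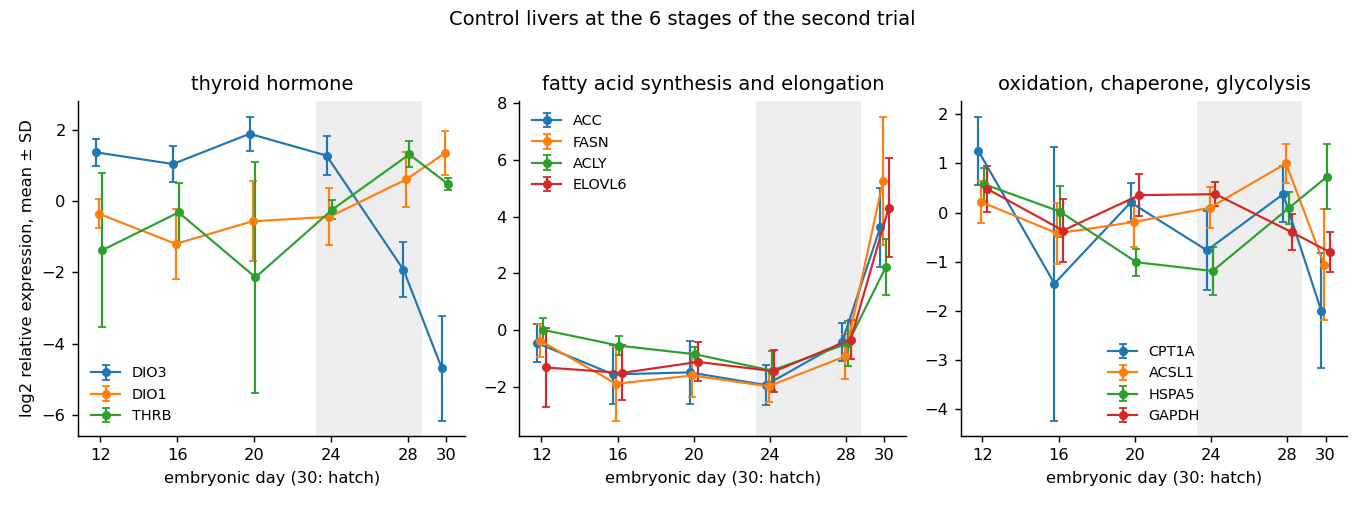
Mean ± SD of log2 relative expression (vertical axes) against embryonic day in control livers, 4 to 8 livers per point, with the interval E24 to E28 shaded. DIO3 drops below 0 at E28. ACC, FASN, ACLY and ELOVL6 have higher means at E28 than at E24 and far higher ones at E30. CPT1A and ACSL1 are higher at E28 than at E24 or E30, and CPT1A is highest at E12.

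The TM livers gave the same comparison in other embryos. Their incubator was warmed daily until the day before E28, as the methods describe it, so this comparison would also span the end of the treatment. The labels, however, place the E28 livers of both arms 1 h after the temperature increase. Of 86 genes tested there, 15 changed (17.4%), 13 higher (15.1%) and 2 lower (2.33%), by limma with the Benjamini-Hochberg correction. The lists shared 6 genes, DIO3, ACC, ACSL1, CPT1A, ELOVL6 and FASN, which are 42.9% of the control list and 40% of the TM list. DIO3 ranged from −4.02 to −0.89 with a median of −2.41 at E28 (n = 7) and from 1.13 to 2.29 with a median of 1.86 at E24 (n = 8), and fell by 4.16 ± 0.39 (adjusted p = 7.32e-07). DIO1, at 1.55 ± 0.23, passed in TM livers (adjusted p = 0.000218). ELOVL6 rose by 2.11 ± 0.50 and FASN by 1.55 ± 0.33 there.

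For 13 of the 14 genes called in control livers the TM difference had the same sign, the exception being SLC16A10 at −0.14 ± 0.32, and ELP3 was at 0.04 ± 0.34. THRB differed by 0.98 ± 0.49, HSPA5 by 0.68 ± 0.24 and HSP90AA1 by 0.30 ± 0.21 in TM livers, none of which passed (adjusted p = 0.167, 0.0646 and 0.390 by limma). Over the 85 genes tested in both, 60 (70.6%) had the same sign, with r = 0.69 across genes, or 0.56 without DIO3, and genes are not independent replicates. For no gene was a difference of the change between TM and control livers called by the limma interaction contrast (0 of 85 at an adjusted p of 0.05, 7 at an unadjusted p of 0.05). The interaction differences with the smallest p were HSP90AA1 at −0.80 ± 0.29, SLC16A10 at −1.25 ± 0.50 and VLDR at −1.63 ± 0.65 (adjusted p = 0.344 each), and DIO3 was at −0.96 ± 0.52 (adjusted p = 0.433). The median SE of this contrast was 0.44, so it could miss differences as large as the smaller changes that passed within an arm.

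**Figure D5:**
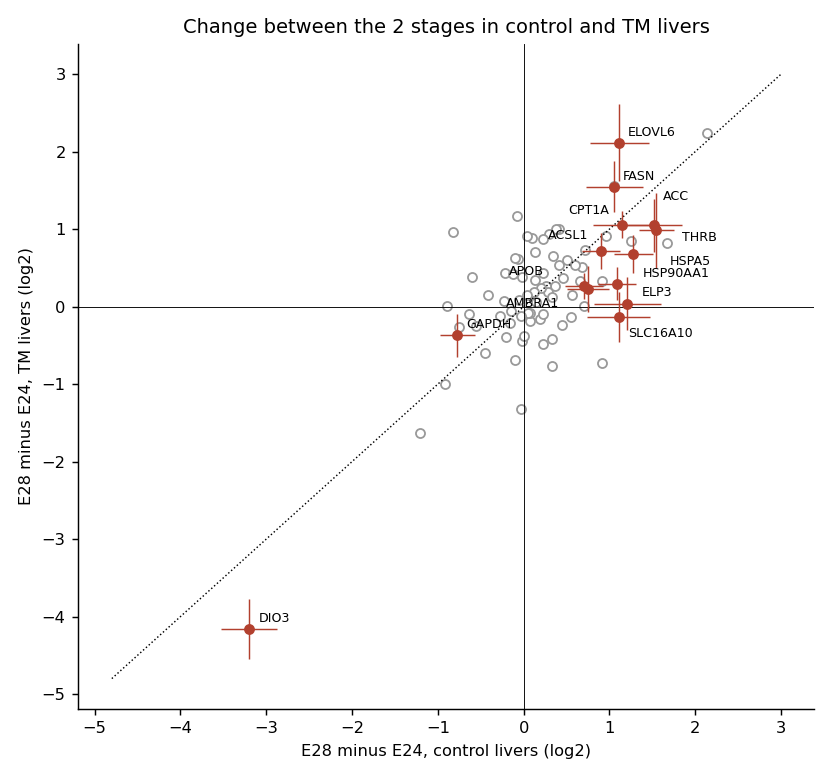
Difference between E28 and E24 in control livers (horizontal axis, log2) and in TM livers (vertical axis, log2) for the 85 genes tested in both; filled points with SE bars are genes that passed in control livers, and the dotted line marks equal changes. DIO3 lies far out at −3.20 and −4.16, while SLC16A10 and ELP3 lie near 0 on the vertical axis.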

How the data were processed

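The deposited files hold, per liver, relative expression ratios and the Ct values from which the authors computed them (2 to the power of minus ∆∆Ct, against the geometric mean Ct of HPRT1, luciferase, STAB1 and USP9X and the mean of the gene over the trial). The first unit is a ratio that the authors had normalized in this way. The Ct (unit "other" in cycles) are as the authors exported them. Recomputing gave the deposited ratio with the geometric mean of the reference Ct, which the methods call only a mean, in the 91 livers of the second trial with all 4 reference Ct. The depth of a PCR is not a count of reads, and Ct are given beside results for a few assays only. The labels do not say which livers shared a chip. One per-sample column was not used.

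The ratios were log2-transformed with no pseudocount, and genes with at least 6 values per stage were tested with limma 3.58.1 (R 4.3.3) and the Benjamini-Hochberg correction. Exact permutation tests went through every split with numpy 2.4.6, and scipy 1.17.1 gave their adjustment and the methods' test. limma was tested on simulated data. Genes named are those past the adjusted p, up to 12 in each direction, up to 4 genes of smallest p per list, the hepatocyte markers and the reference genes. Others are named to make up a list, after their values were seen. Members, lists and tests were chosen with earlier results of these data known. Alternatives were other reference genes, centring on the panel, other detection limits, a fit of the whole trial, the replicate block, the methods' test and each liver left out in turn. Same-numbered livers of both stages deviated with correlations of −0.255 to 0.212, so the numbers were not taken as pairs. No sequence was used. One gene of the panel is not reported here by name.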

Additional observations from a re-analysis of the deposited data

Results flagged for a closer look

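Among the 174 sets of values that were looked at (each gene tested, at each stage), 8 (4.6%) held a liver far from the others by Dixon's criterion. Chance alone meets it in about 1 of 20 complete sets. Most ratios missing despite a Ct would have lain outside the range kept, so these sets cannot be compared with that rate. All 8 values were the lowest of their set. For ELP3, E24 replicate 5 stood at −2.60, with the nearest other liver at −1.20. For DIO1, E28 replicate 2 stood at −1.14, with the nearest at 0.27, and the same liver stood at −2.12 for ATG3, with the nearest at −0.27. For ChREBP, E28 replicate 8 stood at −1.41, with the nearest at 0.46. For ALDH3A2, E28 replicate 4 stood at −5.89, with the nearest at −1.80, and E24 replicate 8 at −8.51, with the nearest at −2.95. For DNAJB12, E28 replicate 3 stood at −8.15, with the nearest at −0.50, and for HDAC1, E28 replicate 6 stood at −2.13, with the nearest at −0.51. The outlying values of ALDH3A2 and DNAJB12 came from late Ct, 26.5 to 30.7.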

How the results depend on the processing

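None of the 14 genes called in control livers changed sign in 401 values under the alternatives. Many of these signs could not change, since the other tests, the detection limits and the whole-trial fit use the same group means. The fits that left out 1 liver share most of their livers. Of the 14 genes, 7 passed in every such fit (DIO3, THRB, HSPA5, HSP90AA1, ACC, ACSL1 and GAPDH). Leaving out 1 liver at a time gave 5 to 17 higher and 2 lower genes, with 5 higher without E28 replicate 1, 4, 5 or 8 or E24 replicate 2, and 17 without E28 replicate 2. Against 12 higher and 2 lower, the counts were 6 higher with ratios recomputed from all Ct, 7 higher and 6 lower with the panel centred, 0 higher and 1 lower with luciferase alone as reference (median SE 0.54; 9 genes at an unadjusted p of 0.05 by limma), 6 higher with the exact permutation test after adjustment, 21 higher with the methods' test unadjusted and 5 after adjustment, and 1 lower where all 8 livers of each stage had to have a value, which left 44 genes and not GAPDH. The fit of all livers of the trial gave 11 higher and 2 lower, without THRB, ELOVL6, FASN and AMBRA1 and with ACLY, DIO1 and HSP60. In TM livers, 7 genes were higher with recomputed ratios. With the panel centred, there by the mean of 43 genes, 7 were higher and 4 lower. With the replicate block, 12 genes were higher and 3 lower, and of the 14 calls APOB and ELP3 were lost. Centring moved the median of the reference genes to −0.24 from 0.07 and that of all genes to −0.06 from 0.22. The cause of these shifts was not tested. The number of livers limits the precision.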
